A study of Mus musculus with 6 samples.

Results

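The transcripts of 9 nuclear receptor genes were compared between wild type (WT) macrophages and macrophages lacking progranulin (PGRN KO) after exposure to Candida albicans. The 9 genes were chosen by name as receptors that sense lipids or steroids: the liver X receptors Nr1h2 and Nr1h3, the peroxisome proliferator-activated receptors Pparg and Ppard, the retinoid X receptors Rxra and Rxrb, the retinoic acid receptor Rara, the glucocorticoid receptor Nr3c1 and the vitamin D receptor Vdr. They are 9 of the 54532 genes in the table and 9 of the 49 genes of the mouse nuclear receptor superfamily. RNA sequencing had been done on 3 WT libraries (replicates 1, 2 and 3) and 3 PGRN KO libraries (replicates 4, 5 and 6), all of strain C57BL/6J. Per the labels, the cells were macrophages of the mouse peritoneal cavity, held in culture overnight and then challenged in vitro with C. albicans for 6 hours at 1 fungal cell per macrophage. Both genotypes received the fungus, and unchallenged cells were not analysed here. An age for the mice whose cells were sequenced was not found in the labels or methods, which say that mice were matched for age and sex. The knockout removes Grn, the progranulin gene, from the whole animal, so cells other than macrophages lacked it as well. The study's methods name different suppliers for the knockout and the WT mice, and supplier and genotype cannot be told apart. The study's text also speaks of bone marrow-derived cells where the labels say peritoneal cavity, and gives a different ratio of fungus to cells, and the labels were followed for both. Nothing says that the libraries came from separate mice, so p-values measure the spread between these libraries, which may be technical.

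Nuclear receptors are transcription factors that are switched by small fat-soluble ligands. Liver X receptors bind oxysterols and drive cholesterol efflux genes, PPARs bind fatty acids and drive lipid uptake and oxidation genes, and retinoic acid and vitamin D receptors bind the active forms of those vitamins. All of these act on DNA as partners of a retinoid X receptor, whereas the glucocorticoid receptor acts mainly as a dimer of itself. In macrophages these receptors are known for linking lipid handling to the control of inflammatory genes.

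Depth was 15996786 to 17551619 counted fragments per library, with a median of 419 fragments for a tested gene in a library. Grn, the targeted gene, was at 323, 337 and 325 FPKM in WT and at 0.0166, 0 and 0.0167 FPKM in PGRN KO, as the labels require. FPKM are fragments scaled to gene length and library size. PGRN KO replicate 6 stood apart from the other PGRN KO libraries: the chi-square per degree of freedom between it and replicates 4 and 5 was 60.7 and 63.2, against 5.65 between replicates 4 and 5 and 4.53 to 13.85 among WT libraries. Its deviation from the mean of all 6 libraries also ran with gene length (Spearman's rho across genes -0.47, against 0.15 to 0.24 elsewhere). That mean includes replicate 6, so the values of the other libraries partly mirror it. Fold changes without replicate 6 are therefore given where it changes the call, and for many where it changes the size. Summed macrophage markers (8 genes) spanned 11618 to 12561 FPKM in WT and 10445 to 14377 in PGRN KO, with 2 of 8 higher on the mean in PGRN KO. Nearly all of this sum was Lyz2, Cd14 and Cd68. In the limma test described below, Csf1r was lower in PGRN KO (log2 fold change -0.38, adjusted p = 0.0178) and Mertk higher (0.81, adjusted p = 0.0064). The other 6 did not pass an adjusted p of 0.05. Without replicate 6, 4 of the 8 were lower and 1 was higher. The 8 markers of large peritoneal macrophages summed to 8.81 to 9.41 and 10.6 to 12.4 FPKM (4 of 8 higher). Of these, Gata6 was at 3.78 to 4.26 FPKM in WT and 3.84 to 5.07 in PGRN KO, while Timd4 and Rarb reached at most 0.204 and 0.0659 FPKM and thus were nearly absent. Markers of other cells were low but moved with genotype. All 6 B cell markers (4.79 to 6.08 FPKM in sum in WT, 19.0 to 24.1 in PGRN KO), 5 of 6 mast cell markers (2.29 to 3.19, then 9.72 to 14.0), 5 of 6 T and NK cell markers (2.29 to 2.54, then 3.30 to 4.61) and 5 of 7 mesothelial and fibroblast markers (0.839 to 0.963, then 1.74 to 3.19) had a higher mean in PGRN KO. Dendritic cell markers summed to 27.3 to 34.6 FPKM in WT and 15.8 to 19.3 in PGRN KO, with 2 of 6 higher in PGRN KO. Most of this sum was a single gene, Ccr7 (25.5 to 32.4 FPKM in WT and 14.4 to 18.2 in PGRN KO). Neutrophil markers summed to 19.5 to 21 and 16.9 to 21.3 FPKM (1 of 8 higher), with Ly6g, Cxcr2 and Stfa2l1 at 0, and adipocyte markers to at most 0.376 FPKM (1 of 6 higher). Nearly all of the neutrophil sum was Mmp8 (19.5 to 20.9 FPKM in WT and 16.7 to 21.2 in PGRN KO). The part of these cells in the results below was not tested.

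Levels were compared between receptors as FPKM, which is a level per length. Nr1h2 was the highest of the 9 and Vdr the lowest (mean of 6 libraries). The order of the means was Nr1h2, Nr3c1, Rara, Ppard, Rxra, Rxrb, Nr1h3, Pparg and Vdr. The ranges of neighbours in this order did not overlap within either genotype, apart from Rara and Ppard, which overlapped in PGRN KO, and Pparg and Vdr, which overlapped in WT. Rara was above Ppard in 4 of 6 libraries, with means 1.15-fold apart. The levels dropped steeply at the low end: Rxrb was 4.34-fold above Nr1h3 on the mean, Nr1h3 was 2.50-fold above Pparg and Pparg was 3.37-fold above Vdr. Summed over the 9 genes, the level was 103, 107 and 105 FPKM in WT and 90.2, 84.6 and 89.4 FPKM in PGRN KO. Nr1h2 made up 29.7% to 30.3% of that sum in WT and 33.7% to 45.0% in PGRN KO, and Rara 14.9% to 16.7% and 10.8% to 14.1%.

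**Figure D1:**
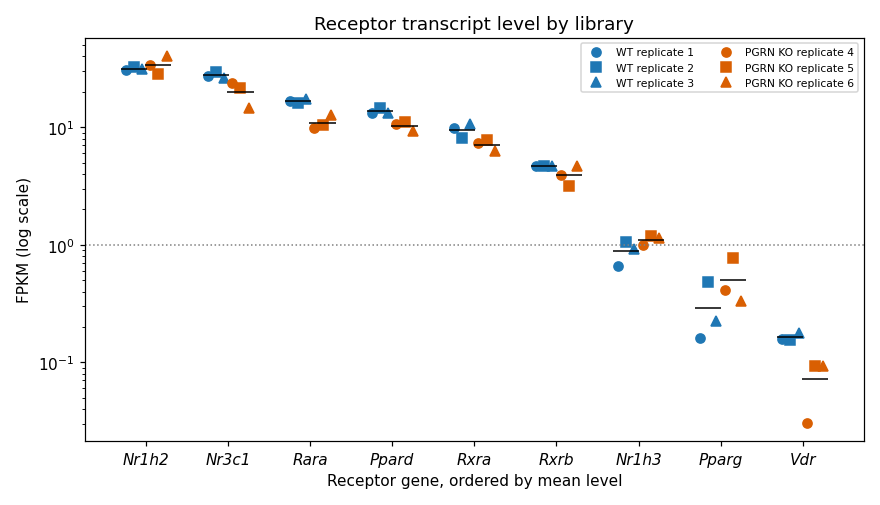
FPKM of the 9 receptors in each library, on a log axis, with blue marks for the 3 WT libraries, orange marks for the 3 PGRN KO libraries, a mark shape for each replicate, a bar at the mean of each genotype and a dotted line at 1 FPKM, the level needed for testing. Rara and Ppard are lower in every PGRN KO library than in any WT library, and Pparg and Vdr lie below 1 FPKM throughout.

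Of the 9 receptors, 6 had a mean of at least 1 FPKM and were tested with limma on log2(FPKM + 1) over 8882 genes. Rara and Ppard fell in PGRN KO and none rose. Nr3c1, Rxra, Rxrb and Nr1h2 did not pass an adjusted p of 0.05. Across all tested genes 24.2% passed, 13.8% lower and 10.4% higher in PGRN KO (1230 and 921 genes; 608 and 922 when each library was rescaled to the same sum of FPKM). At an unadjusted p under 0.05, 4 of the 6 tested receptors passed, as did 39.1% of all tested genes. Of the 6, 5 had a negative log2 fold change, with a median of -0.38 against -0.031 over all tested genes. In 4 of the 6 (Nr3c1, Rara, Ppard and Rxra) the WT and PGRN KO libraries did not overlap, as was so for 48.8% of all tested genes. Nr1h3, Pparg and Vdr were too low to be tested. In bulk RNA, fewer cells of a type and less RNA per cell cannot be told apart. The genes that overlap Nr1h3, Pparg and Rara in the annotation were at 0.195 FPKM or less.

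**Figure D2:**
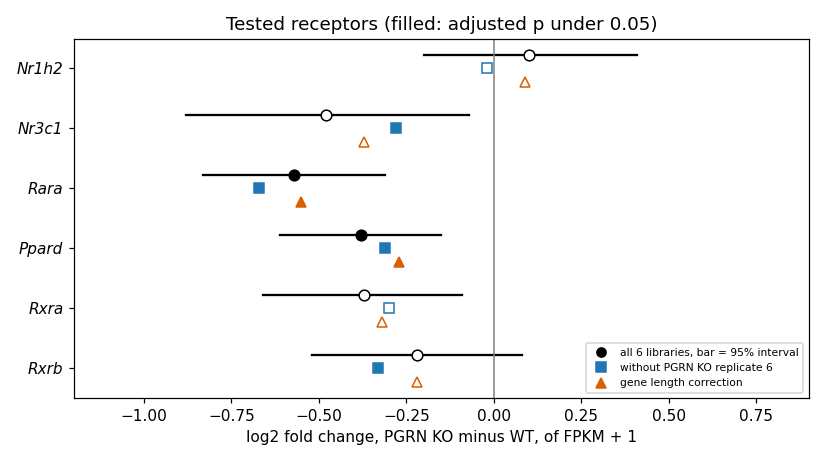
Log2 fold change (PGRN KO minus WT, on log2(FPKM + 1)) of the 6 tested receptors from limma, with circles and 95% intervals for all 6 libraries, squares without PGRN KO replicate 6 and triangles after correction for gene length, where filled marks passed an adjusted p of 0.05 in that fit. Rara and Ppard are filled in all 3 fits, Nr3c1 and Rxrb only without replicate 6, and Rxra and Nr1h2 in none.

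Upstream sequence is shown for the 2 receptors that fell and for Nr1h2, the most abundant member, which did not pass. The windows are the 250 bases before an annotated RefSeq start (GRCm38.p6), written 5′ to 3′ on the gene's strand. Capitals mark the GC box GGGCGG on either strand (its reverse complement is CCGCCC). Rara is read at chr11:98937446-98937695 (plus strand, the most upstream of its 4 windows), Ppard at chr17:28232504-28232753 (plus strand) and Nr1h2 at chr7:44553966-44554215 (minus strand).
Rara: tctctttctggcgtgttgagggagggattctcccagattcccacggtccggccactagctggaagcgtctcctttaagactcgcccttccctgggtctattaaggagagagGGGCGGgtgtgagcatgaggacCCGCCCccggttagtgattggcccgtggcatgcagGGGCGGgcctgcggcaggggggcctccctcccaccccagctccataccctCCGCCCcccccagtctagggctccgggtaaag
Ppard: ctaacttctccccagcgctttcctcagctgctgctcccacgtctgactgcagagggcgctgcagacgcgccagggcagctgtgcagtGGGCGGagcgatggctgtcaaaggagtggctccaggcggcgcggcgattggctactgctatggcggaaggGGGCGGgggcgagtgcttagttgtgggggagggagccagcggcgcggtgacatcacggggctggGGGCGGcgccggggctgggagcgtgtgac
Nr1h2: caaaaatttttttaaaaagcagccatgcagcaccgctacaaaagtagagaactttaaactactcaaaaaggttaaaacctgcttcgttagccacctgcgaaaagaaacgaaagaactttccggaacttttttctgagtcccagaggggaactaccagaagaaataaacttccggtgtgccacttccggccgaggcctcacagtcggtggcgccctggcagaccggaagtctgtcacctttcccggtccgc
The Rara window holds 4 GC boxes at 65.2% GC, the Ppard window 3 at 69.6% and the Nr1h2 window 0 at 48.4%. The other Rara windows hold 4, 0 and 1. The first of these, at chr11:98937468-98937717, overlaps the printed window, and its 4 GC boxes are the same ones. Among receptors that did not pass, the Rxra windows hold 3 and 0 and the Rxrb windows 2 and 3. Among those too low to be tested, the Vdr window holds 3, the Pparg windows 1, 2 and 0, and the Nr1h3 windows 0 and 0. Of the 9 receptors, 8 matched the promoter table, with 16 windows in all. A GC box was found in 10 of these windows, from 6 receptors, with both overlapping Rara windows counted. The receptor hexamer AGGTCA, on either strand, was found in 3 of the windows. Over all 32851 windows of this length in the table, 32.7% held a GC box and 14.0% the hexamer. A match to the GC box and a match to the hexamer cannot overlap, since no end of one has the letter that begins the other. A match describes letters only.

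Rara, the receptor for retinoic acid (ENSMUSG00000037992, chromosome 11, 98927818 to 98974942), measured 16.6, 16.0 and 17.5 FPKM in the WT libraries. The PGRN KO libraries held 9.76, 10.5 and 12.6 FPKM of it. All 3 PGRN KO libraries lay below all 3 WT libraries, with replicate 6 the closest to WT. The log2 fold change was -0.57 ± 0.11 (SE, 95% interval -0.83 to -0.31, adjusted p = 0.0129, limma with Benjamini-Hochberg adjustment), which put the mean at 65.6% of WT. Without replicate 6 it was -0.67. Rara passed in 14 of 16 alternative fits and missed the threshold without WT replicate 1 (adjusted p = 0.0632, limma) and without WT replicate 3 (adjusted p = 0.0601). The targeted gene Grn lies on the same chromosome, at 102430315 to 102437048. Whether this nearness has a part in the Rara level was not tested.

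Ppard, a fatty acid receptor that is expressed in many tissues (ENSMUSG00000002250, chromosome 17, 28232700 to 28301474), was at 13.2, 14.7 and 13.2 FPKM in WT and at 10.7, 11 and 9.31 FPKM in PGRN KO. The groups did not overlap. The log2 fold change was -0.38 ± 0.10 (95% interval -0.61 to -0.15, adjusted p = 0.0330, limma), with a mean at 75.3% of WT. This call was less firm than that of Rara: it passed in 8 of 16 alternatives. It missed the threshold without each of the WT replicates 1, 2 and 3 (adjusted p = 0.107, 0.131 and 0.0906, limma), without PGRN KO replicate 4 or 5 (0.0655 and 0.0519), and under 3 other settings given in the closing section. Its direction was the same in all 16.

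Pparg, which is known for driving lipid storage genes, was far lower. It was at 0.162, 0.481 and 0.225 FPKM in WT and 0.411, 0.769 and 0.333 FPKM in PGRN KO, so that the groups overlapped (ENSMUSG00000000440, chromosome 6, 115360951 to 115490399). Summed over 3 libraries, 41 fragments were counted in WT and 81 in PGRN KO, and the level in PGRN KO was 183% of WT (95% exact interval 124% to 273%, counting error only). The exact two-sided permutation test of 3 against 3 libraries gave p = 0.3.

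Rxra, the main partner receptor in many tissues (ENSMUSG00000015846, chromosome 2, 27676440 to 27762957), was at 9.84, 8.16 and 10.6 FPKM in WT and at 7.27, 7.75 and 6.32 FPKM in PGRN KO. The groups did not overlap, although WT replicate 2 and PGRN KO replicate 5 were close. The log2 fold change was -0.37 ± 0.12 and missed the threshold (95% interval -0.66 to -0.09, adjusted p = 0.0653, limma). Rxrb, its close relative (ENSMUSG00000039656, chromosome 17, 34031812 to 34038393), was at 4.69, 4.70 and 4.68 FPKM in WT and at 3.92, 3.14 and 4.69 FPKM in PGRN KO. The WT libraries were nearly equal (SD 0.0116 FPKM), whereas PGRN KO replicate 6 matched them and replicates 4 and 5 lay lower. Its log2 fold change was -0.22 ± 0.13 (95% interval -0.52 to 0.08, adjusted p = 0.236, limma), and without replicate 6 it was -0.33 and passed (adjusted p = 0.0266).

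Nr1h2, which encodes LXR beta (ENSMUSG00000060601, chromosome 7, 44549616 to 44553951), was at 30.6, 32.4 and 31.0 FPKM in WT and at 33.6, 28.5 and 40.2 FPKM in PGRN KO. The PGRN KO libraries spread around WT, with replicate 5 below it and replicate 6 the highest of the 6 libraries. The log2 fold change was 0.10 ± 0.13 (95% interval -0.20 to 0.41, adjusted p = 0.584, limma). Without replicate 6 it was -0.02. Nr1h2 passed in 0 of 16 alternatives, and the interval does not exclude a change of up to 0.41 on the log2 scale.

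Nr1h3, which encodes LXR alpha, the form known for induction in lipid-loaded macrophages (ENSMUSG00000002108, chromosome 2, 91184061 to 91202834), was at 0.665, 1.05 and 0.925 FPKM in WT and at 0.987, 1.18 and 1.15 FPKM in PGRN KO. The groups overlapped through WT replicate 2. Over 3 libraries 109 fragments were counted in WT and 149 in PGRN KO. The level in PGRN KO was 127% of WT on these counts (95% exact interval 98.2% to 164%), a range that includes no difference.

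Nr3c1, the glucocorticoid receptor (ENSMUSG00000024431, chromosome 18, 39410545 to 39491301), was at 27.3, 29.3 and 26.3 FPKM in WT and at 23.6, 21.6 and 14.7 FPKM in PGRN KO. No PGRN KO library reached the lowest WT library, and replicate 6 was far below replicates 4 and 5. The log2 fold change was -0.48 ± 0.17 (95% interval -0.88 to -0.07) and missed the threshold (adjusted p = 0.0866, limma). Without replicate 6 it was smaller, at -0.28, and passed (adjusted p = 0.0217). The SD was 4.68 FPKM in PGRN KO and 1.57 FPKM in WT.

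Vdr, the vitamin D receptor (ENSMUSG00000022479, chromosome 15, 97854425 to 97910630), was at 0.159, 0.156 and 0.177 FPKM in WT and at 0.0307, 0.0935 and 0.0922 FPKM in PGRN KO. The groups did not overlap. These levels stand for few fragments: 46 over the WT libraries and 22 over the PGRN KO libraries. The level in PGRN KO was 44.3% of WT (95% exact interval 25.4% to 75.1%, counting error only), and the exact permutation p = 0.1 is the smallest that 3 against 3 libraries can give.

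Ratios within a library do not depend on library scaling, and were compared for the 3 pairs of related receptors by exact two-sided permutation tests with adjustment over the 3 pairs. The Pparg to Ppard ratio was 0.0123, 0.0326 and 0.0170 in WT and 0.0384, 0.0700 and 0.0358 in PGRN KO. The groups did not overlap, and on the log2 scale the difference was 1.27 (WT mean -5.72 ± 0.72, PGRN KO mean -4.45 ± 0.53, SD, n = 3 each), with exact permutation p = 0.1, the smallest possible, and adjusted p = 0.3. This ratio rests on the few Pparg fragments. The Nr1h3 to Nr1h2 ratio was 0.0217 to 0.0324 in WT and 0.0286 to 0.0412 in PGRN KO, with a log2 difference of 0.24 (exact permutation p = 0.6). The Rxra to Rxrb ratio was 2.1, 1.74 and 2.27 in WT and 1.86, 2.47 and 1.35 in PGRN KO, with a log2 difference of -0.14 (exact permutation p = 0.7). Neither ratio separated the genotypes. The lowest Rxra to Rxrb ratio of the 6 libraries was that of PGRN KO replicate 6, and the difference without this library was not computed. The receptors of each pair differ in length: Rxra and Rxrb (5462 and 3698 bases), Pparg and Ppard (2953 and 7514) and Nr1h3 and Nr1h2 (2515 and 3354). The deviation of replicate 6 with gene length therefore need not cancel in any of these ratios, the Pparg to Ppard ratio included.

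**Figure D3:**
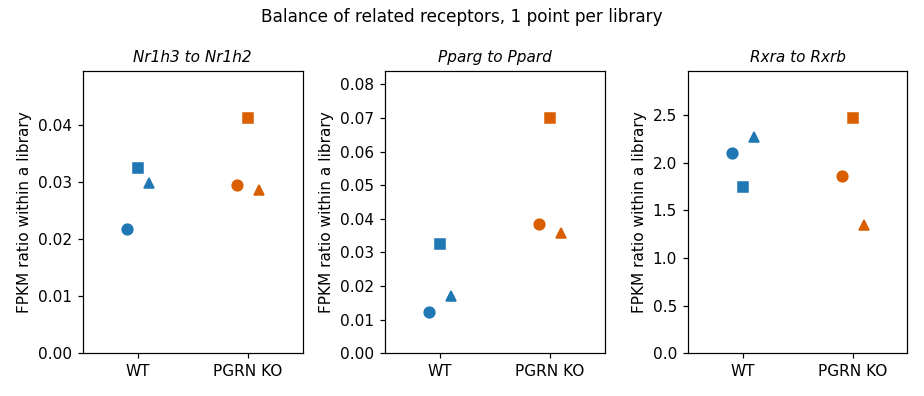
FPKM ratios within each library for Nr1h3 to Nr1h2, Pparg to Ppard and Rxra to Rxrb, with 1 point per library (blue for WT, orange for PGRN KO, a mark shape for each replicate) on axes that start at 0. The Pparg to Ppard points of the 2 genotypes do not overlap, and the points of the other pairs do.

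The genes whose log2(FPKM + 1) ran closest to the 2 receptors that fell were sought among 4855 genes with a mean of at least 5 FPKM. Over the 6 libraries, which share the genotype difference, Rara was most like Hbegf (Pearson's r = 0.9992), Gsn (0.9951) and Haus8 (0.9945). Hbegf, which encodes a growth factor of the EGF family, was at 161 to 169 FPKM in WT and 132 to 148 in PGRN KO. Ppard was most like Trim35 (r = 0.9969), Pip5k1a (0.9944) and Spata2 (0.9941). These are descriptions of 6 points each.

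Among the other 40 genes of the nuclear receptor superfamily, 8 were tested, and 15 had no fragment in any library. Of the 8, 4 fell, 0 rose and 4 did not pass, with a median log2 fold change of -0.39 against -0.031 over all genes. Over all 8882 tested genes, 13.8% fell and 10.4% rose, shares that also stand beside the lists below. Without PGRN KO replicate 6, 2230 of the 8882 fell and 1438 rose, and of the 8 other nuclear receptors 6 fell and 0 rose. Nr4a2, an immediate early orphan receptor, was at 9.59, 9.88 and 10.8 FPKM in WT and 3.14, 2.59 and 1.81 in PGRN KO (a change of -1.67 in log2, adjusted p = 0.00142, limma). Its relative Nr4a3 went from 92.5 ± 12.7 FPKM to 45.9 ± 11.6 (SD, n = 3), a log2 fold change of -1.02 (adjusted p = 0.0146, limma). Rora, a receptor of the clock and lipid pathways, had a log2 fold change of -0.96 (adjusted p = 0.0365, limma), which was -0.64 without replicate 6, and Nr1d2, a clock repressor, one of -0.37 (adjusted p = 0.0493). Nr4a2 passed in all 16 alternatives, whereas the calls of Rora, Nr1d2 and Nr4a3 were lost in fits with 1 library left out. Most such fits called fewer genes in general: 713, 855 and 883 without WT replicate 1, 2 or 3, against 2151. Without PGRN KO replicate 4 or 5 the count was 1390 and 1601, but without PGRN KO replicate 6 it was 3668. Rora missed the threshold without WT replicate 1, 2 or 3 (adjusted p = 0.114, 0.121 and 0.0898, limma), Nr1d2 without WT replicate 1, 2 or 3 (0.154, 0.125 and 0.145) or PGRN KO replicate 5 (0.102), and Nr4a3 without WT replicate 1 or 2 (0.0641 and 0.0657). Nr1d2 passed in 7 of 15 alternatives and Rora in 11 of 16. Nr4a1, the most abundant of the 3 NR4A genes, was at 184 ± 28.8 FPKM in WT and 139 ± 15.1 in PGRN KO and did not pass (adjusted p = 0.0853, limma), but did without replicate 6 (adjusted p = 0.0452). Esrra, a receptor of mitochondrial metabolism, was at 13.9 ± 0.267 and 13.5 ± 3.09 FPKM (log2 fold change -0.05, adjusted p = 0.812, limma), and without replicate 6 it was at -0.22 and passed (adjusted p = 0.0171). Trmt112 (12.8 FPKM) overlaps 73 bases of Esrra on the other strand, beside a model length of 2539 bases, and an effect on the Esrra level was not tested.

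Coactivators and corepressors bind nuclear receptors and set their output. Of 18 tested of 20 genes, 0 passed in either direction with limma, 3 were at an unadjusted p under 0.05, and 0 passed with limma voom on recovered fragments. Their median log2 fold change was -0.29, and 15 of 18 were negative. Without PGRN KO replicate 6 the median was -0.122 with 14 of 18 negative, and 2 genes passed in each direction. Ncor1, the corepressor of unliganded receptors, was at 7.88, 8.10 and 7.78 FPKM in WT and at 7.42, 7.06 and 3.32 FPKM in PGRN KO, so that its fold change of -0.42 rested on replicate 6 and was -0.11 without it. Hdac3, a deacetylase in the same complex, was at 11.2 ± 0.509 and 12.0 ± 1.07 FPKM, and the coactivator Ncoa3 at 12.8 ± 0.732 and 10.4 ± 2.05 FPKM (log2 fold change -0.29, and -0.13 without replicate 6). Ttc19 (2.09 FPKM) overlaps Ncor1 on the other strand over 12026 bases, introns included. Whether their exons overlap was not checked, and an effect on the Ncor1 level was not tested.

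Target genes of the liver X receptors went in both directions: 3 of 13 tested genes rose, 2 fell and 8 did not pass, with a median log2 fold change of 0.00. Without PGRN KO replicate 6, 4 of the 13 rose and 4 fell, against 1438 and 2230 of all 8882 tested genes. Apoe, which carries cholesterol out of macrophages, was at 351, 366 and 396 FPKM in WT and at 919, 882 and 1676 FPKM in PGRN KO, a log2 fold change of 1.58 ± 0.25 (adjusted p = 0.00661, limma) and 1.28 without replicate 6. Cd5l, a survival factor of macrophages, was at 7.21 ± 0.195 FPKM in WT and 22.8 ± 5.77 in PGRN KO (1.51, adjusted p = 0.00220), and the efflux pump Abcg1 at 1.13 ± 0.181 and 2.94 ± 0.293 (0.89, adjusted p = 0.00322). The fatty acid synthase Fasn fell from 1.90 ± 0.214 to 0.721 ± 0.274 FPKM (adjusted p = 0.0115, limma) and Mylip, which targets the LDL receptor for degradation, fell by 0.46 on the log2 scale. Fasn missed the threshold without WT replicate 1 or 3 (adjusted p = 0.0565 and 0.0522, limma) and Mylip without WT replicate 1, 2 or 3 (0.0872, 0.0533 and 0.0772). Abca1, the main efflux pump, was at 95, 92.2 and 90.3 FPKM in WT and at 73.5, 74.4 and 29.6 FPKM in PGRN KO. Its log2 fold change of -0.75 did not pass (adjusted p = 0.144, limma), and it was -0.32 and passed without replicate 6 (adjusted p = 0.00405). Smpdl3a, a phosphodiesterase, was at 137 ± 4.15 and 145 ± 2.98 FPKM (adjusted p = 0.477, limma).

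Of 16 tested PPAR target genes 1 rose, 2 fell and 13 did not pass, with a median log2 fold change of -0.02. Without PGRN KO replicate 6, 2 rose and 7 fell, with a median of -0.169. Over all 8882 tested genes, that fit had 1438 higher and 2230 lower, with a median of -0.038. The lipoprotein lipase Lpl was at 21.8, 21.5 and 19.3 FPKM in WT and at 8.63, 8.46 and 9.63 FPKM in PGRN KO, a log2 fold change of -1.14 ± 0.09 (adjusted p = 0.00119, limma) that passed in all 16 alternatives. The 2 fatty acid binding proteins went opposite ways: Fabp4 went from 17.4 ± 1.40 to 10.7 ± 2.35 FPKM (-0.67, adjusted p = 0.0208), and Fabp5 from 70.6 ± 1.05 to 109 ± 17.2 FPKM (0.60, adjusted p = 0.0154). Both missed the threshold without WT replicate 1, 2 or 3 (adjusted p = 0.0697, 0.0877 and 0.0663 for Fabp4 and 0.0697, 0.0681 and 0.0633 for Fabp5, limma), and Fabp4 also without PGRN KO replicate 4 or 5 (0.062 and 0.0554). The scavenger receptor Cd36 (129 ± 3.09 and 103 ± 9.91 FPKM, adjusted p = 0.0553) and the lipid droplet coat gene Plin2 (374 ± 25 and 309 ± 50.5 FPKM, adjusted p = 0.166) did not pass with limma, and both passed without replicate 6 (adjusted p = 0.00964 and 0.00596). Hilpda, a lipid droplet protein, was at 1017 ± 47.9 and 969 ± 242 FPKM (log2 fold change -0.10, adjusted p = 0.714, limma), and without replicate 6 it was at -0.29 and passed (adjusted p = 0.0128).

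Of 5 tested genes of the retinoid pathway, 3 fell and 2 did not pass, with a median log2 fold change of -0.44. Without PGRN KO replicate 6, 4 of the 5 fell and 0 rose, against 2230 and 1438 of all 8882 tested genes. Aldh1a2, which makes retinoic acid, was at 4.83, 5.35 and 3.99 FPKM in WT and at 2.24, 1.59 and 2.1 in PGRN KO (a change of -0.94 in log2, adjusted p = 0.00505, limma). Rdh11, a retinal reductase, was at 24.9 ± 3.53 and 17.9 ± 0.574 FPKM (-0.44, adjusted p = 0.0344), and Ltb4r1, a leukotriene receptor, at 2.29 ± 0.410 and 1.12 ± 0.410 FPKM (-0.64, adjusted p = 0.0370). Without single libraries these 2 calls were lost: Rdh11 without WT replicate 1 or 2 (adjusted p = 0.125 and 0.118, limma) or PGRN KO replicate 4 or 5 (0.0679 and 0.082), and Ltb4r1 without any of WT replicates 1, 2 and 3 (0.132, 0.123 and 0.0601) or PGRN KO replicate 4 or 5 (0.0687 and 0.063). Tgm2, a transglutaminase known as a retinoid target, was at 279 ± 8.48 and 236 ± 13.0 FPKM and did not pass (adjusted p = 0.0983), nor did Dhrs3, another retinal reductase, at 20.5 ± 2.73 and 20.3 ± 3.92 FPKM (adjusted p = 0.923). Without replicate 6 Tgm2 was at -0.27 and passed (adjusted p = 0.0146, limma), and Dhrs3 was at -0.16 and did not (adjusted p = 0.31). Tgm2 overlaps Rprd1b (2.69 FPKM), on the other strand, over 15896 bases.

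In the glucocorticoid list 8 of 16 tested genes fell, 1 rose and 7 did not pass, with a median log2 fold change of -0.41. Over all tested genes, 13.8% fell and 10.4% rose. Without PGRN KO replicate 6, 11 of the 16 fell and 2 rose, against 2230 and 1438 of all 8882 tested genes. Errfi1 was at 47.7, 50.9 and 45.7 FPKM in WT and at 23.8, 23.8 and 20.4 in PGRN KO (a change of -1.05 ± 0.10 in log2, adjusted p = 0.00142, limma). The clock gene Per1 (-0.69), the phosphatase Dusp1 (-0.66) and the chaperones Ptges3 (-0.64) and Hsp90aa1 (-0.61) passed as well. Dusp1 missed the threshold without WT replicate 1 or 2 (adjusted p = 0.0617 and 0.0546, limma). Fkbp5, a chaperone that dampens the receptor and is induced by it, rose from 0.760 ± 0.0766 to 1.70 ± 0.110 FPKM (0.62, adjusted p = 0.00594). The known target Tsc22d3 did not pass, nor did the metallothionein Mt1 or Ddit4, an inhibitor of growth signalling: Tsc22d3 was at 15.8 ± 1.5 and 13.1 ± 1.1 FPKM (adjusted p = 0.128), Mt1 at 452 ± 39.8 and 278 ± 97.1 FPKM (adjusted p = 0.0531) and Ddit4 at 302 ± 30.9 and 288 ± 51.5 FPKM (adjusted p = 0.732). Without replicate 6, Tsc22d3 (-0.31, adjusted p = 0.0288, limma) and Mt1 (-1.02, adjusted p = 0.000719) passed and Ddit4 did not (-0.21, adjusted p = 0.183). Mt1 passed in 8 of 16 alternatives.

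Only 2 of the 14 genes of the vitamin D and oxysterol list reached the level for testing. Ch25h, which makes an oxysterol from cholesterol, was at 8.15, 11.4 and 8.83 FPKM in WT and at 35.9, 26.1 and 38.7 FPKM in PGRN KO. The genotypes did not overlap, and the log2 fold change of 1.72 ± 0.18 (adjusted p = 0.00196, limma) passed in all 16 alternatives. Cyp51, a sterol synthesis enzyme, was at 2.34 ± 0.214 and 1.75 ± 0.172 FPKM and did not pass (adjusted p = 0.0820, limma), but did without replicate 6 (adjusted p = 0.0302). Cyp27a1 was at 0.185 ± 0.0327 and 0.310 ± 0.0307 FPKM and Hsd11b1, the enzyme that regenerates active glucocorticoid, at 0.832 ± 0.197 and 1.07 ± 0.205 FPKM, and neither was tested. Over all 7 lists, 6 of 78 tested genes rose and 19 fell, with a median of -0.27. Without replicate 6, 11 rose and 35 fell. Of all 8882 tested genes, 921 rose and 1230 fell, and without replicate 6 these counts were 1438 and 2230.

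**Figure D4:**
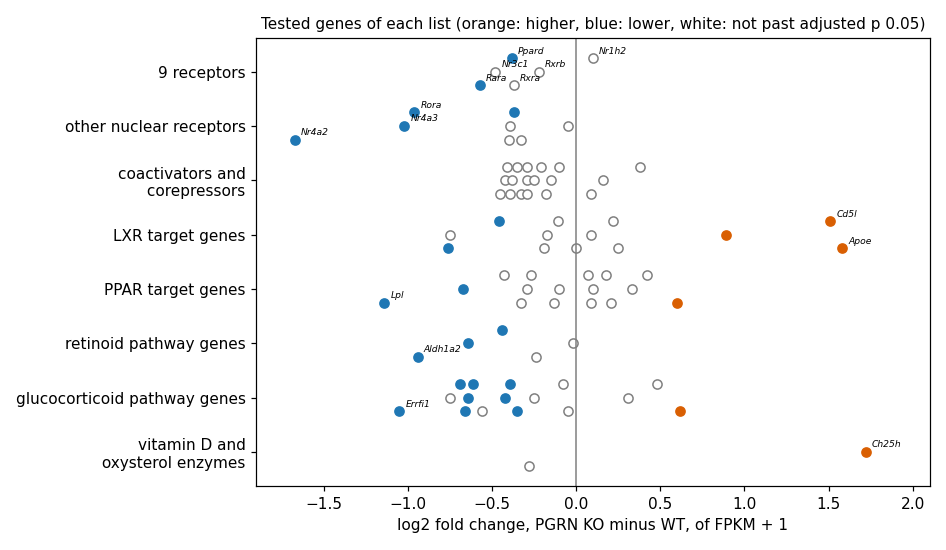
Log2 fold change (PGRN KO minus WT, on log2(FPKM + 1)) of the tested genes of the receptors and the 7 lists, 1 point per gene, in orange where the gene rose, in blue where it fell and in white where it did not pass an adjusted p of 0.05 (heights within a row only separate the points). Ch25h, Apoe and Cd5l lie farthest to the right, and Nr4a2 farthest to the left.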

How the data were processed

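RNA of 3 WT and 3 PGRN KO libraries was sequenced after poly-A selection. The submitters' processing notes name CASAVA, HISAT2 2.0.5, featureCounts 1.5.0-p3, DESeq2 1.20.0 and the build GRCm38 (mm10), whereas the study's methods name HISAT and HTSeq. The authors deposited FPKM (fragments scaled to gene length and library size) with a gene length for each gene. The deposited FPKM, multiplied by length, gave whole fragments for 100.0% of values within 0.001 of a step, which gave the depth. The library kit does not mark strand, and how strand was set in the counting is stated nowhere in these sources. Of the 54532 genes, 99.77% were found in GENCODE M21, 98.26% of them at the same position.

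Genes with a mean of at least 1 FPKM (8882) were tested on log2(FPKM + 1), a scale that understates changes of low genes, with limma 3.58.1 in R 4.3.3 (empirical Bayes with mean-variance trend, two-sided test without covariates, Benjamini-Hochberg adjustment, threshold 0.05). On simulated counts with 200 of 8882 genes changed by 1 on the log2 scale, 85.5% were recovered and 8.4% of calls were false, above the 0.05 threshold. The simulation used a dispersion of 0.02 for every gene and no outlying library, and its change was larger than that of any tested receptor. Its rates therefore do not carry over to the receptor calls. Low receptors and ratios were compared by exact permutation tests. Intervals on fragments are exact and cover counting error only, since reads carry no molecular identifiers.

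The receptors, the lists and the tests were chosen with earlier results of these data known. Named were all 9 receptors, up to 4 genes past the threshold in each direction and the 2 most abundant others in each list, the 3 genes most like each receptor past the threshold, and a fixed set of 13 genes. Hsp90aa1 falls outside this rule and was chosen after its values were seen. The 15 alternatives laid down at the start changed the pseudocount (0.1), the filter (none, or 5 FPKM), the scaling (TPM or quantile), the weights, the trend, gene length, the count scale (voom) or left out 1 library. A further one, gene length correction without PGRN KO replicate 6, was chosen after seeing the data.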

Additional observations from a re-analysis of the deposited data

How the results depend on the processing

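No paired analysis was possible because no replicate number occurs in both genotypes. The number of receptors past the threshold, 2 in the reported test, was 5 with sample quality weights, 1 on the TPM scale, 1 without a filter on low values, 1 under quantile normalization and 4 with gene length correction without PGRN KO replicate 6. It ran from 0 to 4 when 1 library was left out: 0 without WT replicate 1 or 3, and 4 without PGRN KO replicate 6. Ppard missed the threshold without a filter (adjusted p = 0.0642, limma), under quantile normalization (0.0531) and on the TPM scale (0.159). Genes past the threshold, 2151 in all, became 1366 without a filter, 4225 with quality weights and 3664 with length correction without replicate 6, and 713 to 3668 with 1 library left out. Members of the 7 lists past the threshold, 25 in all, became 51 with quality weights, 45 with length correction without replicate 6, and 12 to 46 with 1 library left out. The cause of these shifts was not tested.

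Among named genes, 10 comparisons turned the sign, all of genes that did not pass. Dhrs3 went to 0.018 under quantile normalization and 0.027 on the TPM scale. With 1 library left out, Dhrs3 ran from -0.164 to 0.097, Nr1h2 from -0.018 to 0.222, Esrra from -0.222 to 0.038, Hilpda from -0.293 to 0.015 and Ddit4 from -0.208 to 0.05. For named genes past the threshold, 321 comparisons kept direction and call and 56 lost the call without turning. For those not past it, 277 kept their side and 46 gained a call. On the TPM scale 922 genes were higher and 608 lower, against 921 and 1230, and the median of all genes moved from -0.031 to 0.014. Depth limits Pparg, Vdr and Nr1h3, with 22 to 149 fragments per genotype.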
